A study of Mus musculus with 2 samples.

Results

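Effector and memory CD8 T cells made up 629 of the 8664 cells kept from 2 single-cell RNA libraries of the mouse parotid gland, the salivary gland in front of the ear. The members were chosen by measured values. A cell was taken when it held at least 1 UMI (unique molecular identifier, the tag of a captured mRNA molecule) of the CD3 genes Cd3d, Cd3e and Cd3g, at least 1 UMI of Cd8a or Cd8b1, no UMI of Cd4 or Foxp3, fewer than 3 UMIs of the B-cell genes Cd79a, Cd79b and Ms4a1, and at least 2 UMIs of Nkg7 and Ccl5 together. The control library held 201 members among 3378 kept cells, and the irradiated (IR) library held 428 among 5286. Both libraries came from wild-type C3H female mice that were 1 year old at collection, and each pooled the dissociated parotid glands of 2 mice. The IR mice had received 6 Gy to the head and neck on each of 5 days, 30 Gy in total, at 6 to 10 weeks of age, and their glands were collected 10 months after IR. The control mice were not irradiated. With 1 library per condition there is no replicate, so no test was possible, no p-value is given, and a difference between the libraries cannot be told apart from a difference between the pooled mice or between the 2 preparations.

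CD8 T cells recognise peptides on MHC class I. Naive CD8 T cells recirculate through lymph nodes with the help of the chemokine receptor CCR7 and the sphingosine phosphate receptor S1PR1. After antigen, effector cells kill by releasing perforin and granzymes and secrete interferon gamma and chemokines, while memory cells persist, keep part of this programme at hand under the T-box factors Eomes and T-bet, and often carry receptors of the natural killer (NK) family such as NKG2A, NKG2C and NKG2D. Members will be called Nkg7/Ccl5+ CD8 T cells below. Nkg7 is a granule membrane protein of killer lymphocytes and Ccl5 is the chemokine RANTES. Levels are given as UMIs of a gene per 1e6 UMIs summed over all the cells of a class in a library (CPM), and every interval is a 95% interval for counting error only.

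Among T and B cells the members had the highest median depth. Per member, the control median was 4454 UMIs (1400 genes) and the IR median 3392 UMIs (1242 genes), and the members' UMIs summed to 956605 and 1538314. B cells, cut as cells with at least 3 UMIs of the B-cell genes and none of CD3, had medians of 2539 and 2190 UMIs. The libraries shared 12 cell barcodes, 3 of them among kept cells, and no barcode was a member in both. The constant genes of the alpha-beta T-cell receptor, Trac, Trbc1 and Trbc2, were seen in 200 of 201 control and in 428 of 428 IR members, against 4.13% and 6.14% of B cells.

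The label was checked against its markers. Gzmm, which encodes granzyme M and was not used to choose the cells, was at 331 CPM (317 UMIs in 108 cells) in the control members and at 296 CPM (455 UMIs in 180 cells) in the IR members. Eomes had 67 UMIs in 45 control members and 123 UMIs in 89 IR members. In B cells Gzmm was found in 0.258% and 0.131% of cells and Eomes in 0.129% and 0.131%, far below the 53.7% and 42.1% of members with Gzmm and the 22.4% and 20.8% with Eomes. Of the 8 listed terminal effector genes several were at or near 0: Klrg1 and Cx3cr1 had no UMI in any of the 629 members, Gzma had 6 and 24 UMIs, and Gzmb had 21 and 52 UMIs. Of the Gzmb UMIs, 1 control cell held 14 and 1 IR cell held 41. Prf1, perforin, was at 26.1 and 28.0 CPM and was seen in 23 and 42 cells. The whole list summed to 100 and 123 CPM in the members and to 39 and 23.3 CPM in the CD8 T cells with no Nkg7 or Ccl5. Of its 3 genes with enough UMIs for the comparison between these classes, Tbx21, found in 30 and 32 members, and Gzmb were at least 2 times higher in the members of both libraries (2.18% of all genes). Because the label holds for some of its genes and Klrg1 and Cx3cr1 were absent, the cells are called by the genes that chose them.

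NK cells, gamma-delta T cells and proliferating cells were also looked for. The NK-defining genes Ncr1 and Klrb1c had 0 and 2 UMIs in the control members and 1 and 0 in the IR members, and Klra8 and Klra4 were at 0 in both. Constant genes of the gamma-delta receptor (Trdc, Tcrg-C1, Tcrg-C2, Tcrg-C4) were found in 7 of 201 control members and 29 of 428 IR members, all of which also held an alpha-beta constant gene. Since 200 of 201 control and 428 of 428 IR members held an alpha-beta constant gene, this does not tell the 2 kinds of T cell apart. Mki67 or Top2a, which mark dividing cells, were found in 6 and 8 members.

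Nkg7 and Ccl5 themselves set the members, so their values describe the choice and are no finding. The members held a median of 20 UMIs of Nkg7 and Ccl5 in the control library (lowest 2, highest 313) and of 10 in the IR library (lowest 2, highest 87). Nkg7 was seen in 91.5% and 91.6% of members and Ccl5 in 81.1% and 67.3%. The summed level of Ccl5 was 4725 and 3792 CPM and that of Nkg7 was 585 and 862 CPM. Per UMI value, the number of CD8 T cells fell from 25 cells at 2 UMIs to 3.6 per value at 5 to 9, 3.20 at 10 to 19 and 3.05 at 20 to 39 in the control library. In the IR library it fell from 79 cells to 10.2, 6.5 and 5.45 per value over the same ranges. The number per value had no trough there, but in bins that widen to the right the number of cells dipped and rose again. At 2, 5 to 9, 20 to 39 and 40 to 79 UMIs there were 25, 18, 61 and 40 control and 79, 51, 109 and 45 IR cells. Whether the members hold more than 1 group was not tested.

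**Figure D1:**
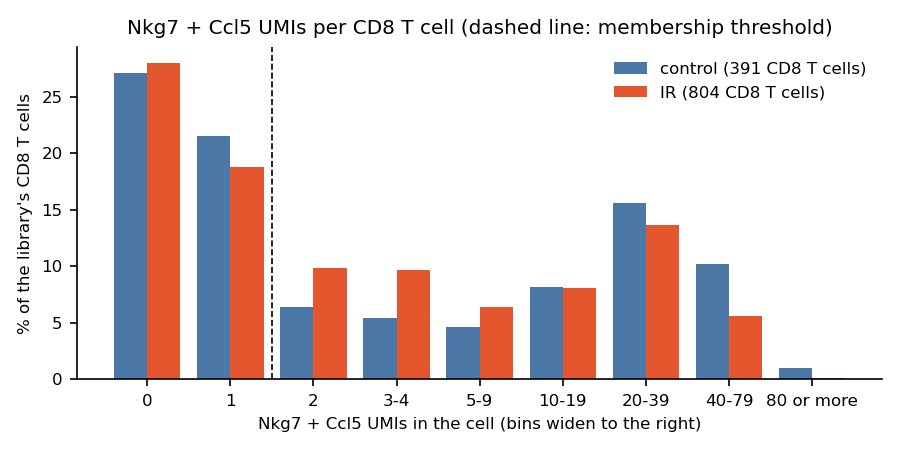
Share of all CD8 T cells of each library (y axis, percent) by the number of Nkg7 and Ccl5 UMIs in the cell (x axis), with the control library in blue (391 cells) and the IR library in red (804 cells). Cells right of the dashed line, with 2 UMIs or more, are the members, and because the bins widen to the right their heights cannot be compared as densities (20 to 39 UMIs held 15.6% of control and 13.6% of IR CD8 T cells, and 0 UMIs held 27.1% and 28.0%).

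Cells just inside the threshold are given here beside those just outside it. There were 25 control and 79 IR members with exactly 2 UMIs, and 84 control and 151 IR cells with exactly 1. Gzmm was at 0 in control and 0 in IR cells with 2 UMIs, and at 0 and 9.49 CPM in the cells with 1. Igfbp4, an insulin-like growth factor binding protein seen in naive T cells, was at 196 and 225 CPM just inside and at 175 and 180 CPM just outside. Eomes was at 35.6 and 11.6 CPM just inside and at 14.3 and 4.74 CPM just outside. The single UMI of the cells just outside was Nkg7 in 72 of 84 control and 140 of 151 IR cells.

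The members differed among themselves, which is shown by ranges of the UMIs of Nkg7 and Ccl5 per 1000 UMIs of the cell. The control library held 39 members under 1 per 1000, 33 from 1 to 3, 98 from 3 to 10 and 31 at 10 or more, and the IR library held 102, 114, 155 and 57. Across these 4 ranges Gzmm was at 50.9, 229, 491 and 399 CPM in the control library and at 66.6, 207, 444 and 489 CPM in the IR library. Klrc2, which encodes the activating receptor NKG2C, was at 42.4, 71.6, 186 and 133 CPM in the control and at 15.4, 95.5, 246 and 307 CPM in the IR members. Fasl, the ligand of the death receptor Fas, was at 21.2, 21.5, 58.3 and 81.2 CPM and at 5.12, 42.4, 103 and 141 CPM. Each of these genes was lowest in the cells with the least Nkg7 and Ccl5, in both libraries.

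The naive T-cell genes were highest in those cells. Dapl1 was at 263, 107, 17.9 and 14.8 CPM over the same ranges in the control library and at 297, 175, 15.7 and 35.3 CPM in the IR library. Igfbp4 was at 110 CPM in control cells under 1 per 1000 and had no UMI in those at 3 or more, and in the IR library it went from 213 CPM to 0. Lef1, a transcription factor of naive and early memory T cells, was at 323, 272, 179 and 125 CPM and at 413, 355, 206 and 176 CPM. Median depth differed little between the ranges (3986 to 4534 UMIs in control and 3218 to 3554 in IR members). Medians do not show single deep cells, and the deepest member held 52986 UMIs in control and 27806 in IR. The weight of such a cell in the CPM of its range was not tested. These are descriptions of cells ordered by a gene pair of the rule.

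**Figure D2:**
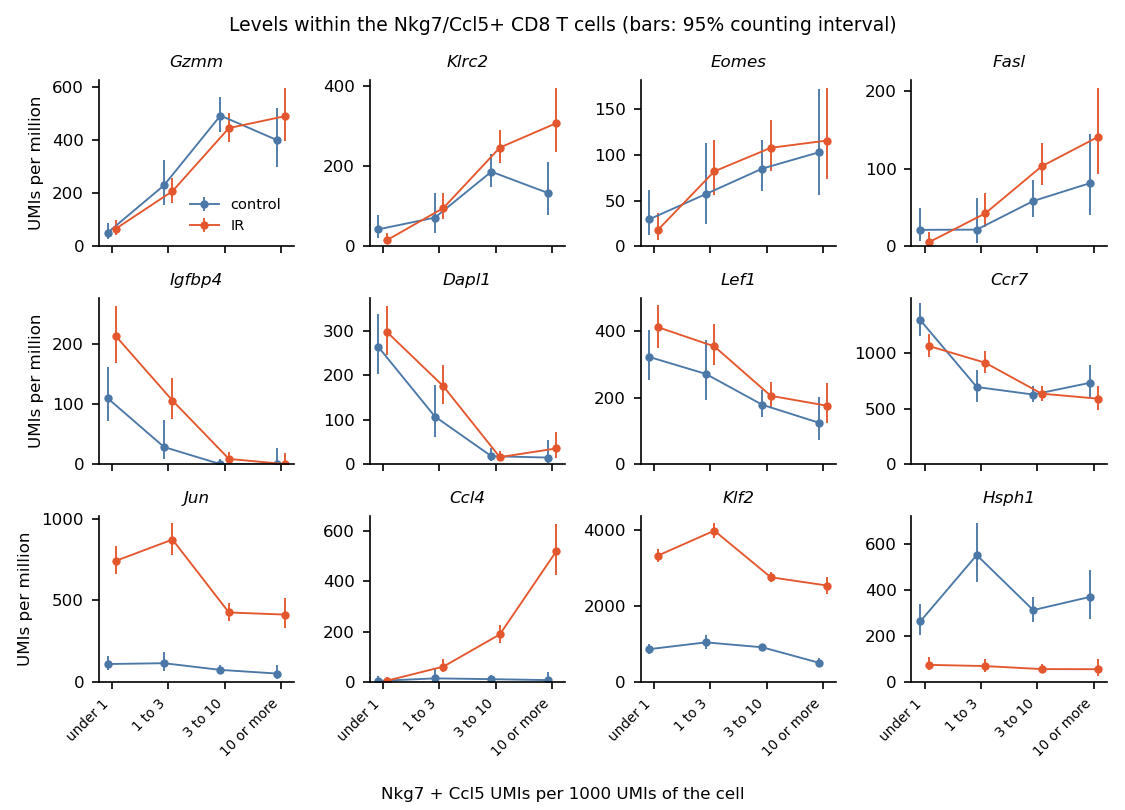
Level of 12 genes (y axes, UMIs per 1e6, from 0) in Nkg7/Ccl5+ CD8 T cells grouped by Nkg7 and Ccl5 UMIs per 1000 UMIs of the cell (x axes), control in blue and IR in red, with 95% counting intervals. Gzmm, Klrc2, Eomes and Fasl are higher at 3 or more per 1000 than under 1 and Igfbp4, Dapl1 and Lef1 are lower, while Jun (743 against 110 CPM in the lowest range and 413 against 51.7 CPM in the highest) and Klf2 are higher, and Hsph1 lower, in IR members of every range.

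The members were next set beside the CD8 T cells with no UMI of Nkg7 or Ccl5, 106 in control and 225 in IR (median 3150 and 2587 UMIs). Because both classes were cut from the same cells by 2 of their genes, the comparison describes what goes with the rule and is no test. Of 5607 genes with at least 50 UMIs over both classes and libraries, the genes of the rule left out, 122 (2.18%) were at least 2 times higher in the members in both libraries, and 33 (0.589%) were at most 0.5 times as high. Where a class had no UMI, 3 UMIs over the class were used and the ratio is a lower bound. The median ratio over all 5607 genes was 1.13 in control and 1.0 in IR cells. Secretory mRNA of the gland, over 16 genes, made up 3.84% of the members' UMIs in control and 4.65% in IR. In the Nkg7/Ccl5-negative cells it made up more, 12.8% and 6.93%. Its part in the ratios was not tested.

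Granule and killing genes come first. Of the list of 13, 11 passed the count minimum and 8 of these were at least 2 times higher in both libraries (2.18% of all genes), with a median ratio of 4.56 in control and 3.18 in IR. Gzmm (chr10:79689020-79695261, plus strand, on the mm10 or GRCm38 build) had 317 and 455 UMIs in the members and 2 and 2 in the Nkg7/Ccl5-negative cells, so its level was 63.8 times (17.5 to 529) and 88.8 times (24.4 to 735) as high. Ctsw, the lymphocyte protease cathepsin W, was at 364 and 453 CPM against 148 and 195 CPM. Fasl was at 47.0 and 68.3 CPM, with 0 and 3 UMIs in the other class. Serpinb9 and Serpinb6b, inhibitors of granzyme-type proteases, were 37.8 times (6.62 to 1509) and 34.6 times (6.05 to 1382) as high in control, on 1 UMI each in the other class, and 5.14 and 3.18 times in IR. Gzmk had 34 and 31 UMIs in the members and none in the other class, at least 4.56 and 4.03 times higher. Srgn, the proteoglycan serglycin that packs granules, was at 1382 and 1049 CPM and differed little between the classes (1.12 and 0.843 times).

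NK-type receptors come next, with 3 of the 5 counted (of 16 listed) at least 2 times higher in both libraries (2.18% of all genes) and median ratios of 8.65 and 4.21. Klrc2 had 121 UMIs in 72 control members and 244 in 130 IR members, with 0 and 1 UMI in the Nkg7/Ccl5-negative cells, at least 16.2 times higher in control and 95.2 times (16.9 to 3776) in IR. Klrc1, the inhibitory NKG2A, had 97 and 169 UMIs, with 0 and 4 in the other class, at least 13.0 times higher in control and 16.5 times (6.32 to 61.2) as high in IR. Klrk1, which encodes NKG2D, was at 135 and 176 CPM against 15.6 and 41.6 CPM. Klrc1, Klrc2 and Klrk1 are neighbours on chromosome 6 (chr6:129610323-129678973, from the start of Klrk1 to the end of Klrc1, all on the minus strand), in the NK gene complex, and reads of the near-identical Klrc genes may be split between them. At least 1 of the 3 was seen in 58.2% of control and 54.9% of IR members, against 0.129% and 0.522% of B cells. Gzmm and these receptors were often seen in the same members: 79 of the 108 control members with Gzmm also held one of the 3 (73.1%, against 40.9% of members without Gzmm), and 150 of 180 did in the IR library (83.3% against 34.3%). Gzmm, Klrc1 and Klrc2 were each lowest in the members with the least Nkg7 and Ccl5. The cells were not matched for this pair or for depth. Ly49 genes were not part of it, since Klra3, Klra7, Klra8 and Klra9 had at most 3 UMIs each in the members of either library.

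Of 14 listed receptors for chemokines and cytokines 12 were counted, and 4 of these were at least 2 times higher in both libraries (2.18% of all genes), with median ratios of 2.47 and 1.87. Cxcr3, the receptor that draws T cells to CXCL9 and CXCL10 in inflamed tissue, had 97 UMIs in 60 control and 134 in 103 IR members, 6.5 and 5.81 times the level of the Nkg7/Ccl5-negative cells. Il18rap, a chain of the interleukin-18 receptor, had 39 and 41 UMIs against 1 and 1. Il2rb, the shared beta chain of the receptors for interleukins 2 and 15, was 3.99 times higher in control and 1.91 times in IR, and so missed the rule.

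Of 7 transcription factors counted, 5 were at least 2 times higher in both libraries (2.18% of all genes), with median ratios of 3.75 and 2.91. Eomes (chr9:118478212-118486132) was 8.99 times (2.95 to 44.7) and 9.60 times (4.0 to 30.1) as high in the members, on 3 and 5 UMIs in the other class. Tbx21, which encodes T-bet, had 31 and 33 UMIs in 30 and 32 members and none in the Nkg7/Ccl5-negative cells, at least 4.16 and 4.29 times higher. Hopx, a homeodomain-only protein of effector and memory T cells, was 3.05 and 2.03 times higher, and Runx3, which fixes the CD8 lineage, was at 141 and 172 CPM and 1.32 and 1.36 times higher. Zfp683, which encodes the tissue-residence factor Hobit, had no UMI in the members or in the other CD8 T cells. Of the other genes with the largest ratios, Plek, the protein kinase C substrate pleckstrin, was at 98.3 and 69.6 CPM (9.45 times, 3.57 to 35.4, and 20.9 times, 5.64 to 175). Kcnj8, a potassium channel gene, was at 33.5 and 22.8 CPM (12.9 times, 2.15 to 524, and 13.7 times, 2.30 to 555). Crtam, an adhesion receptor of activated killer cells, had 28 and 60 UMIs (11.3 times, 1.86 to 461, and 7.80 times, 2.55 to 38.9). Xcl1, the chemokine that draws cross-presenting dendritic cells, had 84 and 68 UMIs against none, at least 11.3 and 8.85 times higher.

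Memory surface genes were mixed. Ly6c2 was at 229 and 259 CPM against 62.4 and 61.6 CPM, and Cxcr3 was the other of 12 listed genes to pass in both libraries (2.18% of all genes). Cd44, the usual flow-cytometry marker of memory, was low in every class, at 46.0 and 54.6 CPM in the members. In Nkg7/Ccl5-negative cells Cd44 had 2 and 20 UMIs. Cd27, a costimulatory receptor, was at 478 and 378 CPM, 0.836 and 0.790 times the other class. Il7r, the interleukin-7 receptor, was at 695 and 795 CPM, 1.36 and 1.25 times the other class.

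Cell cycle genes had higher summed levels in the members, with many of the UMIs in single cells. Of 12 listed genes 7 were counted, and 5 of them (Mki67, Top2a, Stmn1, Mcm5 and Tyms) were at least 2 times higher in both libraries (2.18% of all genes), with median ratios of 5.43 and 3.41. The share of cells did not follow the summed levels, since Mki67 or Top2a was found in 2.99% of control and 1.87% of IR members and in 1.89% and 2.22% of Nkg7/Ccl5-negative cells. For Mki67, 1 control member held 26 of 34 UMIs and 1 IR member 14 of 24. For Top2a, 1 control member held 37 of 44 UMIs and 1 IR member 21 of 35. Stmn1, a microtubule regulator of dividing cells, had 155 UMIs in 43 control and 184 in 61 IR members (4.45 and 3.59 times), of which the highest cell of each library held 40 and 54. Hmgb2 and Pcna were under the rule, both at 1.77 and 1.13 times.

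Naive and recirculation genes were present in the members as well. Ccr7 was at 815 and 805 CPM, 0.765 and 0.679 times its level in the Nkg7/Ccl5-negative cells. Lef1 was at 221 and 291 CPM against 408 and 505 CPM, and S1pr1 at 188 and 259 CPM against 294 and 323 CPM. Of 15 genes counted (16 listed), 1 was at most 0.5 times in both libraries (0.589% of all genes), Ccr9, a homing receptor for the gut, with 1 and 22 UMIs in the members. Lef1 or Ccr7 was present in 93 of 108 control members with Gzmm and in 157 of 180 IR members with Gzmm. Of the 10 genes lowest in the members, Tnfrsf4, the costimulatory receptor OX40, had 4 and 10 UMIs (0.124 and 0.108 times), and Ldhb, a subunit of lactate dehydrogenase, at 5.23 and 14.3 CPM against 26.0 and 43.3 CPM. Trib2, Igf1r, Foxq1, Inadl, Ifngr2, Tubb2a, Gbp2 and Ctsl completed the 10, with ratios from 0.117 to 0.399 over both libraries. Ctla4, an inhibitory receptor, was lower as well, at 31.4 and 57.9 CPM against 83.1 and 133 CPM.

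**Figure D3:**
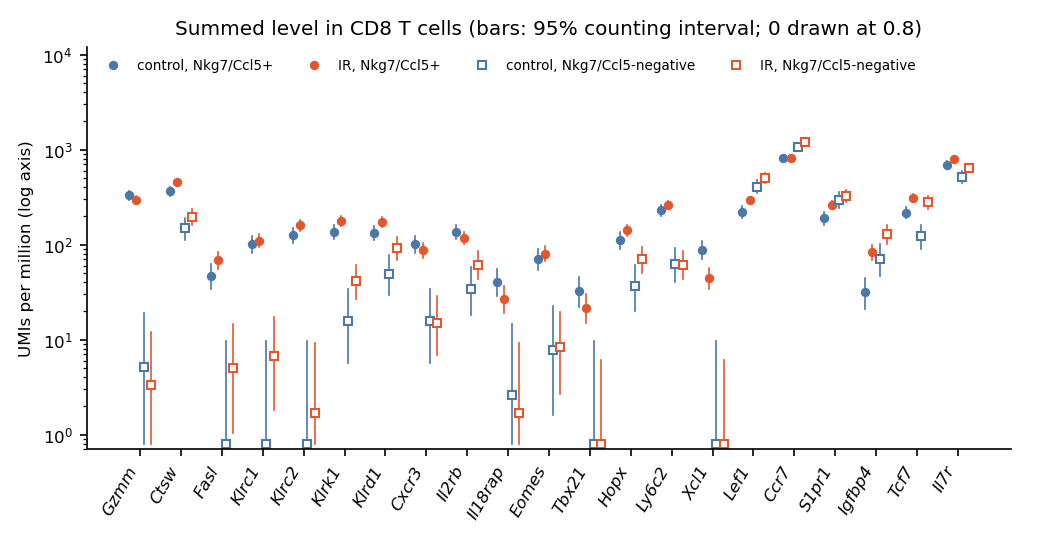
Summed level of 21 genes (y axis, UMIs per 1e6, log axis) in Nkg7/Ccl5+ (filled circles) and Nkg7/Ccl5-negative (open squares) CD8 T cells of the control (blue) and IR (red) library, with 95% counting intervals and values of 0 drawn at 0.8. From Gzmm to Xcl1 the circles lie above the squares in both libraries, for Lef1, Ccr7, S1pr1 and Igfbp4 below them, and for Tcf7 and Il7r above them by less than 2 times.

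Turning to IR, the members were 5.95% of kept cells in the control library (interval 5.18 to 6.80%) and 8.10% in the IR library (7.38 to 8.87%), a ratio of 1.36 (1.15 to 1.62). The share depended on the denominator. Of cells with a CD3 UMI, 15.1% were members in control and 13.6% in IR (ratio 0.90, interval 0.759 to 1.07), and of all CD8 T cells, 51.4% and 53.2% (ratio 1.04, 0.874 to 1.23). CD3+ cells were 1332 of the kept control and 3152 of the kept IR cells. A share of dissociated cells is not a number of cells in the gland.

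Between the libraries, 175 of 4679 genes with at least 50 UMIs were at least 2 times higher in IR members (3.74%) and 65 were at most 0.5 times as high (1.39%). The median ratio of IR over control was 1.07. With library scaling by TMM (trimmed mean of M-values) the split was 141 higher and 90 lower. Of the 10 genes with the largest ratios, 4 were of the immediate early list or its AP-1 family (Jun, Fos, Klf6 and Maff), and the others were Ccl4, Cd74, Myc, Sgms1, Rhob and Gm26532. The 10 smallest ratios included the heat shock genes Hsph1, Hspa1a and Hspd1, and further Mrps6, Samsn1, Gm15459, Arl13b, Fabp5 and Gm13611. Without the highest cell of each library Fabp5 was at 0.642 times and so no longer past the rule.

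**Figure D4:**
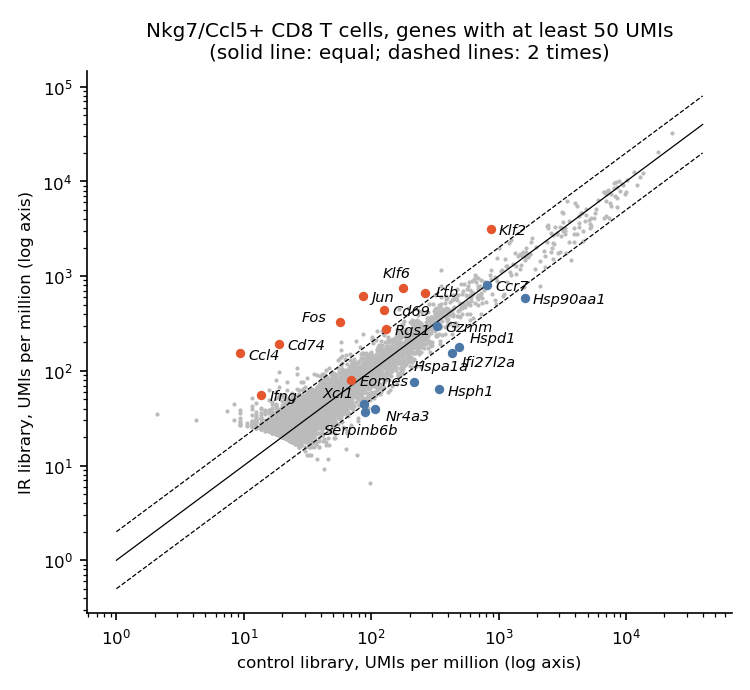
Level in Nkg7/Ccl5+ CD8 T cells of the control (x axis) and IR library (y axis), in UMIs per 1e6 on log axes, for genes with at least 50 UMIs. Grey points are genes, coloured points named genes higher (red) or lower (blue) in IR, the solid line marks equal levels and dashed lines 2 times, and Ccl4, Jun, Fos, Klf6 and Klf2 lie above the band, Hsph1, Hspd1 and Hsp90aa1 below it, with Gzmm, Eomes and Ccr7 inside.

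Immediate early genes are switched on within minutes of a stimulus, including the handling of live cells. All 14 listed genes were counted, 6 of them were at least 2 times higher in IR members (3.74% of all genes) and none was at most 0.5 times, with a median ratio of 1.89. Jun, a subunit of the AP-1 factor (chr4:95049034-95052222), was at 85.7 CPM in control (82 UMIs in 52 of 201 cells) and at 614 CPM in IR (945 UMIs in 263 of 428 cells), 7.17 times (5.71 to 9.09). Fos, its partner, was at 56.4 and 326 CPM, 5.78 times (4.36 to 7.80). Klf6, a zinc-finger factor, was at 179 and 750 CPM, 4.19 times (3.57 to 4.95). No single cell carried these: the highest IR member held 1.59% of the Jun UMIs and 2.19% of the Fos UMIs. Zfp36, Dusp1 and Atf3 were 3.37, 2.23 and 2.58 times higher, while Junb (1.95 times), Jund (1.39 times) and Egr1 (1.31 times) were under the rule. Thinned to 1000 UMIs per cell, 6.47% of control and 34.1% of IR members held Jun (unthinned 25.9% and 61.4%), against 14.1% and 22.5% of B cells.

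Jun was higher in the IR library in the other lymphocytes too. It was 2.35 times as high in the Nkg7/Ccl5-negative CD8 T cells (1.85 to 3.0), 2.58 times in CD4 T cells and 1.43 times in B cells. CD4 T cells (158 control and 388 IR cells) held a UMI of CD3 and of Cd4, none of Cd8a, Cd8b1 or Foxp3 and fewer than 3 of the B-cell genes. The median ratio of the 14 genes was 1.57, 1.71 and 1.40 in these classes, against 1.89 in the members. The ratio of Jun in the members was 3.05 times that in the Nkg7/Ccl5-negative CD8 T cells (2.20 to 4.23), that of Fos 2.31 times (1.49 to 3.57) and that of Klf6 1.88 times (1.45 to 2.45). These intervals come from the 4 UMI sums on the log scale. In the control library Jun was lower in the members than in the Nkg7/Ccl5-negative cells (85.7 against 229 CPM), and in the IR library the levels were 614 and 536 CPM.

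Several of the listed heat shock genes were lower in IR members, and Dnajb1 was higher. Heat shock genes encode chaperones that refold proteins and are induced by heat and other stress through the factor HSF1. HSF1 binds inverted repeats of the letters GAA, the heat shock element. Of the 10 listed, 4 were at most 0.5 times as high in IR members (1.39% of all genes), none was at least 2 times, and the median ratio was 0.524. Hsph1, an exchange factor of the Hsp70 system, was at 343 CPM in control (328 UMIs in 128 of 201 cells) and at 63.7 CPM in IR (98 UMIs in 76 of 428 cells), 0.186 times (0.147 to 0.234). Hsp90aa1, the inducible Hsp90, was at 1600 and 591 CPM, 0.369 times. Hspd1 and Hspe1, the mitochondrial chaperonin pair, were at 491 and 178 CPM (0.363 times) and at 957 and 507 CPM (0.530 times). For Hspd1, 1 control cell held 105 of 470 UMIs, and without it the control level was 382 CPM. Hspa1a, an inducible Hsp70, was at 216 and 76.7 CPM (0.354 times), and Dnajb1, a co-chaperone, at 280 and 358 CPM (1.28 times).

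The promoters of the heat shock genes are shown because the genes share a known regulator and 9 of the 10 had ratios below 1. RefSeq windows (GRCm38.p6) were at hand for 7 of the 10 genes, and the letters GAANNTTC or TTCNNGAA, each its own reverse complement so that 1 search covers both strands, were found in the 250 bases before at least 1 start of 6 of the 7 (all but Dnajb1). The same 3 matches were counted for Hspe1 and for 1 of the 2 starts of Hspd1, and the other Hspd1 start had none. The same letters were found before 12.8% of all 32851 gene starts, and before at least 1 start of 14.5% of 27025 genes. A match is a description of the letters only. In the stretches of 140 bases that follow, written 5′ to 3′ on the strand of the gene, capitals mark the matches, the first letter of the nearest of which lies 33 bases before the nearer of the Hsph1 starts, 79 before that of Hspe1 (3 overlapping matches) and 104 before that of Hspa1a.
Hsph1, chr5:149636352-149636491, minus strand: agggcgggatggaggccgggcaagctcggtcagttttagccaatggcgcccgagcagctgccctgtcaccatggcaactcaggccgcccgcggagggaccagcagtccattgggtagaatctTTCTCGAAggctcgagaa
Hspe1, chr1:55087947-55088086, plus strand: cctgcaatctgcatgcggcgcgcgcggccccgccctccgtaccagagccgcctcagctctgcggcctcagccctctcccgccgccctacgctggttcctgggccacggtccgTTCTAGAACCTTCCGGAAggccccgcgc
Hspa1a, chr17:34972243-34972382, minus strand: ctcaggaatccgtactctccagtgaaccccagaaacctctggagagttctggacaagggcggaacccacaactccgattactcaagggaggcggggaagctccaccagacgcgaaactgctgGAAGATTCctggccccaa

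The 3 genes shown were lower in the IR library in every lymphocyte class compared. Hsph1 was at 0.334 times in the Nkg7/Ccl5-negative CD8 T cells, 0.184 times in CD4 T cells and 0.166 times in B cells. Hspa1a was at 0.300, 0.247 and 0.482 times, and Hspe1 at 0.462, 0.531 and 0.598 times. The median over the 10 genes was 0.546, 0.510 and 0.565 in these classes, next to 0.524 in the members. Since all classes came from the same 2 preparations, a difference of the preparations and one of the tissue cannot be told apart here.

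**Figure D5:**
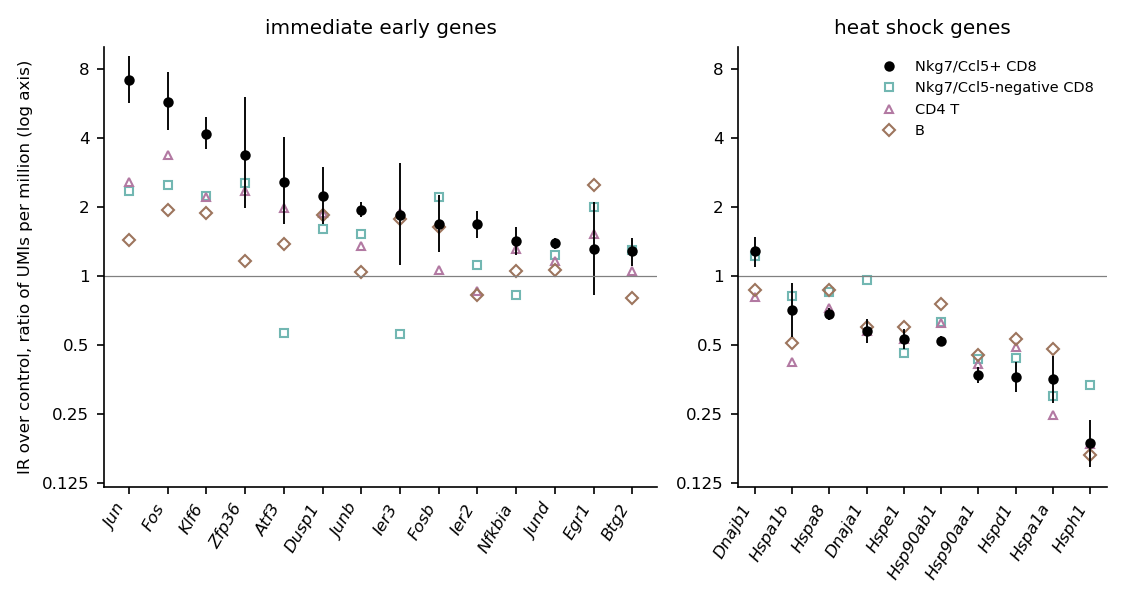
Ratio of IR over control (y axis, log axis) for the listed immediate early genes (left) and heat shock genes (right) in Nkg7/Ccl5+ CD8 T cells (black, with 95% counting intervals), Nkg7/Ccl5-negative CD8 T cells, CD4 T cells and B cells. Jun, Fos and Klf6 lie higher in the Nkg7/Ccl5+ cells than in the other classes, and 9 of 10 heat shock genes lie below 1 in the Nkg7/Ccl5+ cells.

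Secreted chemokines and cytokines came next. Of 12 listed genes 6 passed the count minimum, 4 of which were at least 2 times higher in IR members (3.74% of all genes), with a median ratio of 2.39. Ccl4, the chemokine MIP-1 beta that draws immune cells (chr11:83662584-83664683), was at 9.41 CPM in control members (9 UMIs in 7 of 201 cells) and at 153 CPM in IR members (236 UMIs in 74 of 428 cells), 16.3 times (8.44 to 36.1). Its highest IR cell held 16 UMIs, and without it the IR level was 143 CPM. Thinned to 1000 UMIs, 1.49% of control and 8.41% of IR members held Ccl4, against 0 and 0.669% of B cells. Ccl4 had no UMI in the Nkg7/Ccl5-negative CD8 T cells of either library. Within the IR members it was at 5.12, 61.0, 189 and 519 CPM from the lowest to the highest range of Nkg7 and Ccl5, and within the control members at 4.24, 14.3, 11.2 and 7.38 CPM. Ccl3, its neighbour, had 2 UMIs in control and 32 in IR members.

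Ifng, interferon gamma, was at 13.6 CPM (10 cells) in control and at 55.9 CPM (48 cells) in IR members, 4.11 times (2.28 to 8.04). Of the 86 IR members with Ccl3 or Ccl4, 19 also held Ifng (22.1%, against 8.48% of the other IR members). Ltb, lymphotoxin beta, was at 266 and 662 CPM, 2.49 times, and was 2.78 times higher in the Nkg7/Ccl5-negative CD8 T cells and 2.60 times in CD4 T cells too. Il16 was at 27.2 and 62.4 CPM. Xcl1 went the other way, at 87.8 and 44.2 CPM, 0.503 times (0.360 to 0.701), just outside the rule. Of the 84 control UMIs of Xcl1, 1 cell held 23, and without it the level was 63.8 CPM. Tnf had 6 and 16 UMIs and Il10 none.

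Granule and killing genes mostly differed by less than 2 times between the libraries. Of 11 granule and killing genes counted, none was at least 2 times higher in IR (3.74% of all genes) and 1, Serpinb6b, was at most 0.5 times (1.39% of all genes, 89.9 against 37.1 CPM), with a median ratio of 1.07. Without the highest cell of each library Serpinb6b was at 0.646 times and so no longer past the rule. Gzmm was at 0.893 times (0.772 to 1.03), Prf1 at 1.07 times (0.639 to 1.83) and Fasl at 1.45 times (1.01 to 2.11). Serpinb9 was at 98.3 and 51.4 CPM, 0.523 times (0.383 to 0.712), and Gzmk was at 0.646 times without the highest cell of each library. Among NK receptors 4 genes were counted and none passed: Klrc1 was at 1.08, Klrc2 at 1.25 and Klrk1 at 1.30 times. Of the 7 transcription factors counted none passed, with Eomes at 1.14 times (0.841 to 1.56) and Tbx21 at 0.662 times (0.393 to 1.12). Cxcr3 was at 0.859 times (0.657 to 1.13), and no chemokine or cytokine receptor of 11 counted passed. None of the 12 memory surface genes passed either (median 1.14). In the T-cell receptor list none of 13 passed (median 1.25), and Cd28, the main costimulatory receptor, came nearest at 317 and 629 CPM, 1.98 times (1.74 to 2.27).

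Klf2 stood out among the naive and recirculation genes. It encodes a factor that keeps S1pr1 on in circulating T cells, and it is also an early response gene. Klf2 was at 865 CPM in control and 3181 CPM in IR members, 3.68 times (3.42 to 3.97), and at 1341 and 2762 CPM in the Nkg7/Ccl5-negative cells (2.06 times). Igfbp4 was the other of 14 genes at least 2 times higher (3.74% of all genes), at 31.4 and 83.2 CPM (2.65 times). In members with at least 3 UMIs of Nkg7 and Ccl5 per 1000, Igfbp4 was at 1.26 times, under the rule. Its UMIs lay in members with little Nkg7 and Ccl5: 83 and 40 of the 128 IR UMIs and 26 and 4 of the 30 control UMIs were in cells under 1 and from 1 to 3 per 1000, and above that range it was at 8.73 CPM or 0. S1pr1 was at 1.37 times and Ccr7 at 0.988 times, and the list's median was 1.32. Within the members at 3 to 10 Nkg7 and Ccl5 UMIs per 1000, Klf2 was at 915 CPM in control and 2763 CPM in IR, and in those at 10 or more at 509 and 2544 CPM.

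Of the tissue residence genes 4 were counted and 2 were at least 2 times higher in IR (3.74% of all genes). Cd69, which retains cells in tissue by opposing S1PR1 and is also an early activation gene, was at 126 and 439 CPM, 3.47 times (2.86 to 4.25), and Rgs1 at 131 and 278 CPM, 2.13 times. Cd69 was 2.99 times higher in the Nkg7/Ccl5-negative CD8 T cells, 3.65 times in CD4 T cells and 2.35 times in B cells, so the ratio in the members was 1.16 times that of the other CD8 T cells (0.780 to 1.74). Itgae, the integrin CD103 of epithelial resident T cells, had 9 and 18 UMIs in the members, and Itga1 0 and 5. Cxcr6, a receptor of resident T cells, was seen in 35 control and 71 IR members.

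Of 14 listed checkpoint and chronic activation genes, which summed to 457 and 447 CPM in the members, some receptors linked to exhaustion had few UMIs. Nr4a3 was the highest of the list in control and Icos in IR members, and Ctla4 is given above. Tox was at 0.829 times in IR over control without the highest cell of each library. Pdcd1, which encodes PD-1, had 7 and 5 UMIs, Lag3 15 and 6, Tigit 4 and 9, and Havcr2 0 and 2. Of the 6 checkpoint and chronic activation genes counted, 1 was at most 0.5 times (1.39% of all genes): Nr4a3, an orphan nuclear receptor induced by receptor signalling, at 107 and 39.7 CPM, 0.372 times (0.266 to 0.516). In the Nkg7/Ccl5-negative cells Nr4a3 was at 44.2 and 53.3 CPM, so the ratio in the members was 0.308 times theirs (0.158 to 0.601). Nr4a1 and Nr4a2 were at 1.70 and 1.18 times.

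Interferon response genes differed in both directions, beside 3.74% of all genes at least 2 times higher and 1.39% at most 0.5 times. Of 10 counted, 3 were at least 2 times higher in IR (Irf1 at 2.29, Gbp2 at 2.23 and Ifi47 at 2.01 times) and 2 at most 0.5 times (Ifi27l2a at 427 against 155 CPM and Irf7 at 140 against 63.1 CPM). Ifi27l2a was at 0.284 times in the Nkg7/Ccl5-negative CD8 T cells. Isg15 was at 24.0 and 22.8 CPM. Of 10 genes of MHC class I presentation, Tap1, the peptide transporter, passed at 24.0 and 58.5 CPM (2.43 times), and H2-K1 and B2m were at 0.931 and 1.16 times. Of 5 p53 targets counted, Bbc3, which encodes the cell death protein PUMA, passed at 40.8 and 92.3 CPM (2.26 times, 1.58 to 3.32), and Cdkn1a and Ccng1 were at 0.850 and 0.879 times. Of 5 cell cycle genes counted, Top2a (0.495 times) and Mki67 (0.439 times) passed, but 1 control cell held 37 of 44 Top2a UMIs and 1 held 26 of 34 Mki67 UMIs, and without the highest cell of each library Top2a was at 1.24 and Mki67 at 0.777 times.

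RNA of genes that mark other cells was present in the members and differed between the libraries. All 16 secretory markers were detected in both libraries, with a summed level of 38417 CPM in control and 46586 CPM in IR. The most abundant, Bpifa2, a salivary protein, was at 23001 and 32529 CPM, and 14 genes were counted, of which Odam was at least 2 times higher in IR (2.09 times, beside 3.74% of all genes), but not without the highest cell of each library (1.87 times) or in members with at least 3 UMIs of Nkg7 and Ccl5 per 1000 (0.905 times). Of the 5 red blood cell genes, which summed to 546 and 1742 CPM, the 3 counted were at least 2 times higher in IR (3.74% of all genes), led by Hbb-bs at 352 and 1174 CPM, but 1 IR cell held 1077 of its 1806 UMIs and without it the IR level was 474 CPM. Without the highest cell of each library all 3 were under 2, with Hbb-bs at 1.37, Hba-a1 at 1.16 and Hbb-bt at 1.14 times. Of the 12 myeloid markers, which summed to 176 and 255 CPM and were led by Cst3, 4 were at 0 in each library (Adgre1 in both), and Lyz2 had 1 and 45 UMIs. Of the 9 B and plasma cell markers, which summed to 93.0 and 184 CPM, Ighm was highest at 58.5 and 121 CPM (2.07 times), and Pax5 was at 0 in both libraries. The 7 NK markers summed to 379 and 460 CPM, of which Txk, a kinase of T and NK cells, gave 368 and 416 CPM. Of the 2 counted, Tyrobp, a signalling adaptor of NK and myeloid cells, was at least 2 times higher in IR (3.74% of all genes), with 4 UMIs in control and 46 in IR members, 30 of them in 1 cell, and at 4.97 times without the highest cell of each library. The 10 gamma-delta markers summed to 16.7 and 37.1 CPM. The 6 endothelial and stromal markers summed to 87.8 and 44.2 CPM, with Cdh5 and Kdr at 0 in both. The part of these RNAs in the ratios above was not tested.

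Some genes past the rule had many of their UMIs in 1 cell. Cd74, the MHC class II invariant chain of antigen-presenting cells, was at 18.8 and 192 CPM (10.2 times), but 1 IR member held 154 of its 295 UMIs, and without the highest cell of each library the levels were 11.5 and 91.7 CPM (7.97 times), still past the rule. At least 1 UMI of Cd74, H2-Ab1, H2-Aa or H2-Eb1 was found in 9.95% of control and 16.4% of IR members. Gsn, an actin-severing protein abundant in fibroblasts and named here after its values were seen, had 93 and 10 UMIs, and 1 control member held 88 of its 93 UMIs (0.995 times without the highest cell of each library). At 3 or more UMIs of Nkg7 and Ccl5 per 1000, the IR-to-control ratios of Igfbp4 (1.26), Dusp1 (1.82), Il16 (1.84), Ifi47 (1.17) and Ighm (1.93) were under 2. With at least 4 UMIs of the pair in a cell, those of Gbp2 (1.95), Ifi47 (1.61) and Ighm (1.94) were. The stromal gene Dcn had 46 UMIs in 1 control member and 2 UMIs in 2 IR members.

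Antigen receptor genes were too sparse to describe a repertoire. A UMI of a Trav gene was found in 26 control and 44 IR members, and of a Trbv gene in 8 and 24.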

How the data were processed

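Counts were taken as the authors deposited them, as whole UMI counts per gene and barcode from 10x Genomics v3 libraries, made per the labels and methods with Cell Ranger 3.0.1 on mm10 and with Seurat 3 for the study's own filters. The deposited matrices held 5550 control and 7793 IR barcodes (22707876 and 23890757 UMIs) and 48825 genes. The study's stated cell filters were applied again (200 genes or more, mitochondrial share of 5% or less), and no doublets were removed: Scrublet (scanpy 1.11.5) called 32 control but only 1 IR cell, so only its score ranks were used, as an alternative. UMIs were summed per class and library. Ratios of CPM carry exact conditional binomial intervals, levels exact Poisson intervals and shares Clopper-Pearson intervals. The rule of size was a ratio of at least 2 or at most 0.5 with at least 50 UMIs, and it stands in place of a test because cells are not replicates. The arithmetic was tested on simulated data. Genes named are those of 25 lists (283 entries, of which Cd244a and Pclaf matched no feature) and the 10 highest and 10 lowest ratios of each comparison (for IR against control, among genes with a UMI in at least 10% of the members of the library where they were higher). Members and lists were chosen with earlier results of these data known. Gene positions are from GENCODE M21 (GRCm38). Alternatives used other filters, thresholds, scalings, edgeR 4.0.16 TMM factors, and cells thinned to 1000 UMIs. Some genes are not reported here.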

Additional observations from a re-analysis of the deposited data

How the results depend on the processing

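No paired analysis was possible because each group has 1 sample. The ratio of IR over control for the share of members, 1.36 of kept cells, lay between 1.18 and 1.41 with other mitochondrial limits, at least 500 genes, at least 4 UMIs of Nkg7 and Ccl5 (1.18, interval 0.976 to 1.44) or with the top 6% of doublet scores left out. It was 2.01 with the rule applied after thinning each cell to 1000 UMIs (43 control and 137 IR members), 1.04 of CD8 T cells and, reversed, 0.90 of CD3+ cells. The 240 genes past the rule between IR and control became 726 with at least 20 UMIs per gene, 46 with at least 200, 1004 and 40 with a size rule of 1.5 and 3, and 83 with each cell thinned to 1000 UMIs. The 155 genes past the rule between members and Nkg7/Ccl5-negative CD8 T cells became 293, 46, 479, 58 and 49 under the same settings. Both counts were within 1.5 times under other mitochondrial and gene limits, at least 4 UMIs of Nkg7 and Ccl5, doublet scores, TMM, CPM without secretory, mitochondrial and hemoglobin genes, and cells of at least 2000 UMIs.

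Further settings were chosen after seeing the data. In members with at least 3 UMIs of Nkg7 and Ccl5 per 1000, 141 genes passed between IR and control, and of the 175 higher and 65 lower genes 125 and 45 still had ratios past 2 and 0.5. There Odam (0.905), Hbb-bt (0.887), Trib2 (0.754) and Top2a (1.38) reversed. With each gene taken without the member holding most of its UMIs in each library, 170 of the 175 and 42 of the 65 still had such ratios, and Top2a reversed (1.24). For each gene this setting left out 1 of 201 control but 1 of 428 IR members, which tends to raise the ratio of IR over control. The higher calls were thus likely to stay and the lower ones to end, so the 170 are no check of the higher calls. In all, 223 genes were then higher and 39 lower in IR, and 84 higher and 45 lower (against 122 and 33) in members than in Nkg7/Ccl5-negative CD8 T cells. In the second comparison only the members lost a cell, so fewer higher and more lower genes follow from the setting itself. With 1 library of 2 pooled mice per condition, no interval covers differences between mice. At 956605 and 1538314 UMIs, genes under about 50 UMIs were not resolved, and a gene with no UMI may be present under 3 UMIs per sum.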
